A study of Mus musculus with 6 samples.

Results

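The Clec2 genes encode small lectin-like membrane proteins of the natural killer gene complex. Of those on mouse chromosome 6, the 6 members Clec2h, Clec2i, Clec2g, Clec2f, Clec2e and Clec2d were examined here in peak lists from intestinal crypts. Clec2j, which adjoins Clec2h, was not among them, and the family below means these 6. Members were taken by gene name, and a peak belonged to the family when its summit, the base of highest signal, lay in the gene body or within 10 kb of it, counted once at the nearest member. By this rule 19 merged peaks of 71286 in all belonged to the 6 genes, against 21938 protein-coding genes in the annotation. The genes were chosen by measured values, since the peak calls of these same lists, those of an intronic Clec2g peak among them, were already known. Every comparison of the genotypes below is therefore a description, and no test was made on it.

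Open chromatin was measured by ATAC-seq, in which the transposase Tn5 cuts and tags accessible DNA, in 3 crypt samples labelled WT and 3 from Arid3a conditional knockout (cKO) mice. The cKO animals were VillinCre-ERT2+/-; Arid3a fl/fl, so that tamoxifen removed Arid3a, an AT-rich DNA-binding factor, from cells that use the Villin promoter, which is the epithelium, while stromal cells kept it. Both genotypes were given tamoxifen daily for 3 days and were culled at 1 month, counted from the first injection. The labels give neither the age of the animals nor whether WT animals carried the Cre or the floxed alleles, and they number the samples without naming animals, so the spread between lists may be partly technical. The comparison asks how loss of Arid3a changed accessibility. From tracks of these data the study reported a more accessible promoter region in cKO than in WT at Clec2e, described as a target of HNF4.

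Clec2 proteins, also called Clr or Ocil proteins, are ligands that natural killer cells and other lymphocytes recognise with the NKR-P1 receptors, encoded by the neighbouring Klrb1 genes. Clec2d (Clr-b) is the broadly expressed member and engages the inhibitory receptor NKR-P1B, so that its loss from a cell exposes that cell to killing. Clec2h (Clr-f) is known for its expression in the intestinal epithelium, and Clec2i (Clr-g) is recognised by NKR-P1F. Because ligands and receptors are inherited together in 1 gene cluster that has duplicated repeatedly, its members resemble each other in sequence.

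In GRCm38 with GENCODE M21 genes the family ran over 524.1 kb in the order Clec2h (ENSMUSG00000030364.6, chr6:128662385-128677374), Clec2i (ENSMUSG00000030365.11, chr6:128887588-128898167), Clec2g (ENSMUSG00000000248.16, chr6:128934381-128984707), Clec2f (ENSMUSG00000089728.2, chr6:129014112-129020527), Clec2e (ENSMUSG00000030155.7, chr6:129091998-129100913) and Clec2d (ENSMUSG00000030157.5, chr6:129180615-129186534). Clec2e lies on the minus strand and the other 5 on the plus strand. Clec2f is a transcribed unprocessed pseudogene in GENCODE M21, whereas RefSeq lists it as protein-coding with a longer body, chr6:129008803-129021342. Peaks are named below by the gene and a letter that runs along the chromosome within each gene.

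Sequences that carry the main comparisons are shown first. Clec2g peak b was the only family peak called in every cKO list and in no WT list. It lay in an intron of Clec2g, and the capitals in the window around its middle summit, on the plus strand of GRCm38 at chr6:128941840-128942040, mark the 3 summit bases of the cKO lists.
Clec2g peak b: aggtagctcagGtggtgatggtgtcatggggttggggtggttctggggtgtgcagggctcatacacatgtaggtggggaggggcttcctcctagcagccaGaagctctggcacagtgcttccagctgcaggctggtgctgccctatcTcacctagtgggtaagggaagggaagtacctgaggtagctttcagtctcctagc

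The summits were spread over this window. The 201 bases around the strongest of them, in cKO 1, hold no base masked as a repeat and were 42.8% A+T, against a median of 55.7% over the 19 family windows and 48.8% over all 71286. Aligned to chromosomes 1 to 19, X and Y, that window had 0 other copies of at least 90% identity over at least 150 bases.

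Clec2g peak a, the family peak of highest mean rank, is shown because it does have such a copy. The copy lies 59.3 kb downstream of its summit in BC064078, a transcribed unprocessed pseudogene, and 186 of 199 aligned bases are identical (93.5%). Capitals mark the bases that differ, both on the plus strand of GRCm38, chr6:128935907-128936105 and chr6:128995286-128995483.
Clec2g peak a: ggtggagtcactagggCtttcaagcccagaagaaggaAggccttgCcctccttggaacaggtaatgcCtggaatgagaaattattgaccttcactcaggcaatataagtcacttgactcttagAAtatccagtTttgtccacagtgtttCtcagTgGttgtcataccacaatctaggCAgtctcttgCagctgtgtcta
Copy in BC064078: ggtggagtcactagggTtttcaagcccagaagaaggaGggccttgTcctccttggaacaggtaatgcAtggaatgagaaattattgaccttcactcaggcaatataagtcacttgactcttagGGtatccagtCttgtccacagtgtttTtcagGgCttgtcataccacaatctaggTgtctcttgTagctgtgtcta

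The copy was also open. It sits inside a merged peak at chr6:128994395-128996992 that was called in all 6 lists and whose summit fell 10.74 kb from Clec2g, just outside the 10 kb limit. Reads that carry none of the marked bases could be placed at either locus, which was not tested.

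The promoters of Clec2e and Clec2h, the members with a promoter peak in every list, are shown because they are near copies of each other. The Clec2e run lies partly under Clec2e peak d, which WT 1 did not call. It lies outside Clec2e peak e, the promoter peak of that gene called in every list. The runs below are RefSeq promoter sequence of GRCm38.p6, read along each gene and ending at or before the annotated start, chr6:129100914-129101153 on the minus strand for Clec2e and chr6:128662135-128662384 on the plus strand for Clec2h. Capitals mark bases that differ from, or have no partner in, the other promoter.
Clec2e promoter: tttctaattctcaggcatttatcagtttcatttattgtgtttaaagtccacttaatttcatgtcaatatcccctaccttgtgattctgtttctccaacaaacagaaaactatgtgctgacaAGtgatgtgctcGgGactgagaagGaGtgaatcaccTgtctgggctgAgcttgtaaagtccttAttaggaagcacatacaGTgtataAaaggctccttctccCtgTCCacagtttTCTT
Clec2h promoter: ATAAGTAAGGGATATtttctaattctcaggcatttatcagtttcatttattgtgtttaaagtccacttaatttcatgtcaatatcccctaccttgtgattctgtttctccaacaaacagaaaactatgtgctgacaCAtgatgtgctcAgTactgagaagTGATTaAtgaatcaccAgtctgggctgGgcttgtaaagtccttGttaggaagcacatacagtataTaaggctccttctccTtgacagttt

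Over the 250 bases upstream of the RefSeq starts, the Clec2e and Clec2h promoters were 91.7% identical across the 240 alignment columns that both cover. A read that carries none of the capitals above could be placed at either gene. Its part in the values of Clec2e peak d and Clec2h peak b was not tested. RefSeq promoter sequence was found for 5 of the 6 members, Clec2f being the one without. The other 9 pairs were 43.3% to 48.9% identical by the same measure. Resemblance over the whole upstream stretch was thus seen in 1 of the 10 pairs compared.

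The lists held 40492 to 58297 peaks, and the genome background recovered from each list, which stands in for depth, was 1.75 to 2.29 fragments per base. The longest list was cKO 1 and the shortest was WT 1. The promoter of Arid3a, a start site that recombination need not remove, was called in all 6 lists, so it does not check the labels. Promoter peaks were called in every list at 4 of 8 epithelial marker genes (Cdh1, Cdx2, Olfm4 and Vil1). Epcam, Krt8, Krt20 and Lgr5 had one in some lists only. Beside Clec2h, 9760 genes had a promoter peak in every list, against 21938 protein-coding genes in the annotation. The 4 of 8 is near that share, so it does not mark the cells as epithelial. At leukocyte genes 0 of 8 had a promoter peak in any list, Ptprc, Cd3e and Ncr1 among them. At stromal genes 2 of 6, Col1a1 and Pdgfra, had a promoter peak in every list, Acta2, Col1a2, Cdh5 and Pecam1 had none, and 14 of the 30 merged peaks near the 6 genes were called in more cKO than WT lists, against 4 in fewer. For the epithelial genes these numbers were 5 and 22 of 74, and for the leukocyte genes 3 and 5 of 11. Over all merged peaks the shares were 28.5% in more and 15.7% in fewer cKO lists. The part of these differences in the values below was not tested, and in bulk lists fewer cells with an open site cannot be told apart from less opening per cell.

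**Figure D1:**
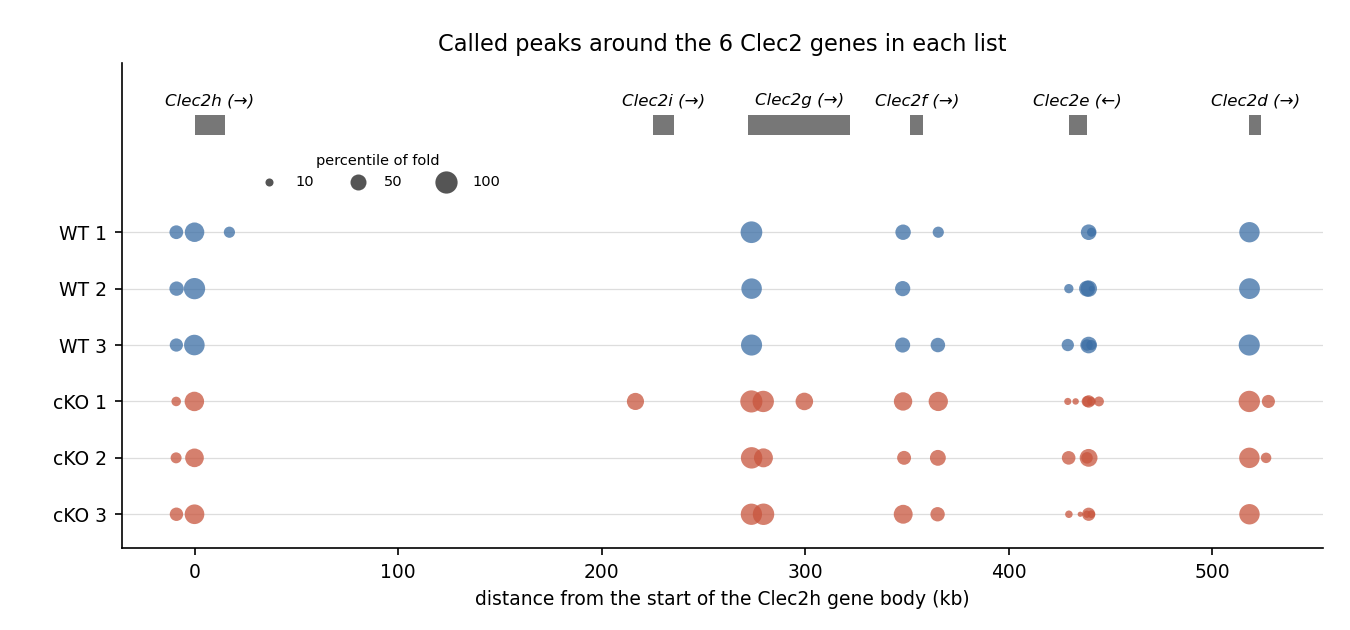
Called peaks around the 6 Clec2 genes. The horizontal axis gives kb from the start of the Clec2h gene body, each row is 1 list (WT blue, cKO red), each circle is 1 peak at its summit and its area grows with the within-list percentile of fold. The circle beside the first Clec2g peak is present in all 3 cKO rows and in no WT row.

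The family had more called peaks in cKO than in WT lists. The counts were 10, 9 and 10 in WT 1, 2 and 3 against 16, 12 and 12 in cKO 1, 2 and 3, which is 9.67 ± 0.577 in WT and 13.3 ± 2.31 in cKO (SD, n = 3 lists each). The ranges did not overlap. Per 10000 peaks of the list, however, the values were 2.47, 1.78 and 1.82 in WT, against 2.75, 2.59 and 2.33 in cKO, and these ranges did overlap. When every list was cut to the length of the shortest by −log10 q, the counts were 10, 8 and 9 in WT, against 11, 11 and 10 in cKO, and the ranges again met.

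**Figure D2:**
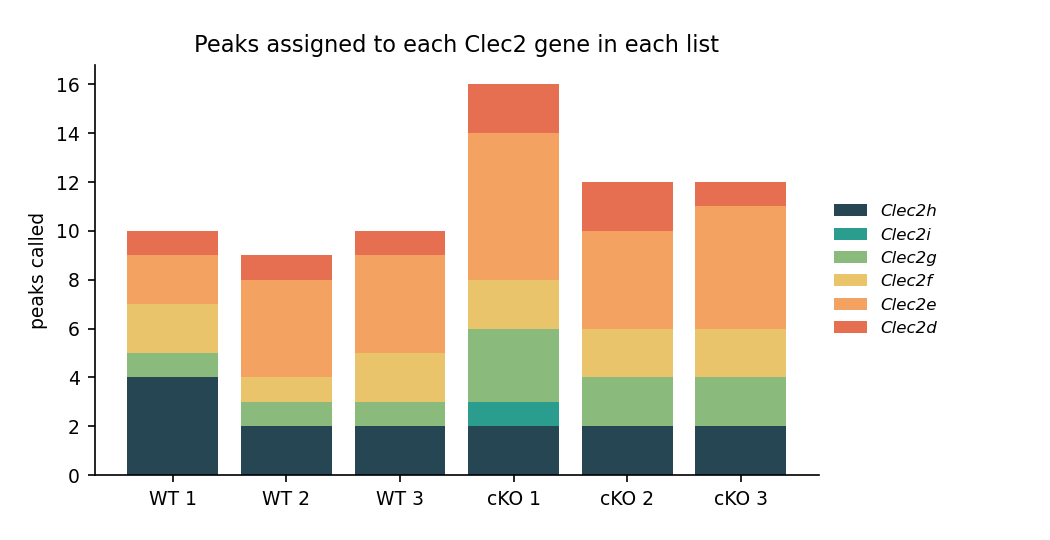
Peaks assigned to each Clec2 gene. Bars give the number of peaks called per list, stacked by gene. The cKO 1 bar stands highest at 16, and the Clec2g segment holds 1 peak in each WT list and 2 or 3 in each cKO list.

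The 69 calls merged into 19 peaks of 236 to 1569 bp. Of these, 6 were called in all 6 lists, 4 in 5 lists, 1 in the 3 cKO lists and 8 in a single list. Across all merged peaks 45.9% were called in all 6 lists, so 6 of 19 was the smaller share. The single-list peaks were mostly weak, with a fold, the summit signal over the local background, of 2.57 to 7.30, and 5 of the 8 came from cKO 1.

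More cKO than WT lists had the peak at 11 of the 19, fewer at 2 and equally many at 6. Among all merged peaks 28.5% were called in more cKO lists and 15.7% in fewer. The 11 rest in part on cKO 1, since without that list 6 of 14 family peaks were called in a larger share of cKO than of WT lists and 2 in a smaller share, beside 25.9% and 25.4% of all peaks. With lists of equal length the family counts were 5 and 3 of 14, beside 18.9% and 17.7%.

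Of the 19 peaks, 1 was called in 3 of 3 cKO and 0 of 3 WT lists and 0 showed the reverse. Over all merged peaks 0.464% and 0.111% did so. A peak of the first kind lay in or within 10 kb of 1.29% of protein-coding genes. Nothing is read from these shares, because the peak was known when the genes were chosen.

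A pair of measures is given for single peaks. The percentile is the rank of the fold among all peaks of the same list, 100 being the highest. The height is the number of fragments at the summit, recovered from the deposited fold and p, divided by the genome background of the list. Over the 32748 peaks called in all 6 lists the median log2 ratio of cKO to WT heights was 0.24, so a ratio of heights near that value is the shift of the lists as a whole.

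Clec2g was the only member whose numbers of calls in WT and cKO lists did not overlap. It encodes a member of the family also known as Clr-d or Ocilrp1, and its body of 50.3 kb is the longest of the 6. Each WT list had 1 peak there and the cKO lists had 3, 2 and 2. The added calls were peak b, already known when the genes were chosen, and peak c in cKO 1 alone. The share of all genes whose counts separate in this way is not given here, so nothing is read from the separation.

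Clec2g peak b (chr6:128941658-128942325) lay in an intron, with its strongest summit 7.45 kb downstream of the nearest annotated start. It was called in cKO 1, 2 and 3 with folds of 12.3, 8.37 and 11.4, and in no WT list. The summit held 57, 22 and 37 fragments, a height of 24.9, 12.6 and 17.0 over the genome background. The WT lists hold no value at this site, but the weakest peaks they called at a local background no higher than here had heights of 4.27, 4.39 and 3.97 in WT 1, 2 and 3. These are the least heights at which those lists called a peak at such a background, and any called peak of the cKO lists passes floors of about that size, 3.94, 4.57 and 4.13 in cKO 1, 2 and 3, so they say nothing of the WT signal at this site. In rank the peak stood at percentiles 91.8, 71.6 and 92.6, which is 85.3 ± 11.9 (SD, n = 3), lowest in cKO 2, the list of lowest background.

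Clec2g peak a (chr6:128935733-128936590), in an intron 1.60 kb downstream of the start, was called in all 6 lists. Its percentiles were 94.9, 84.5 and 89.5 in WT 1, 2 and 3, against 99.0, 92.6 and 91.3 in cKO 1, 2 and 3. The cKO mean was 4.64 points above the WT mean, 94.3 ± 4.11 against 89.6 ± 5.22 (SD, n = 3), and WT 1 lay above 2 of the cKO lists. Heights were 21.8, 23.6 and 31.3 in WT, against 45.1, 26.9 and 23.4 in cKO, so that only cKO 1 exceeded every WT list.

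The copy of this peak in BC064078 had percentiles of 68.5, 60.6 and 60.9 in WT, against 55.2, 46.5 and 57.6 in cKO. All 3 cKO values lay below the WT values there, as they did at 7.04% of all peaks called in every list, whereas at Clec2g peak a the cKO mean was the higher. The last Clec2g peak, peak c (chr6:128961376-128962564), was called in cKO 1 alone at a fold of 7.30, and its window has a copy of 96.5% identity between genes at chr6:128900907-128901107, where no list had a peak. No list had a Clec2g promoter peak, defined here as a summit from 1000 bp upstream to 100 bp downstream of an annotated start.

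**Figure D3:**
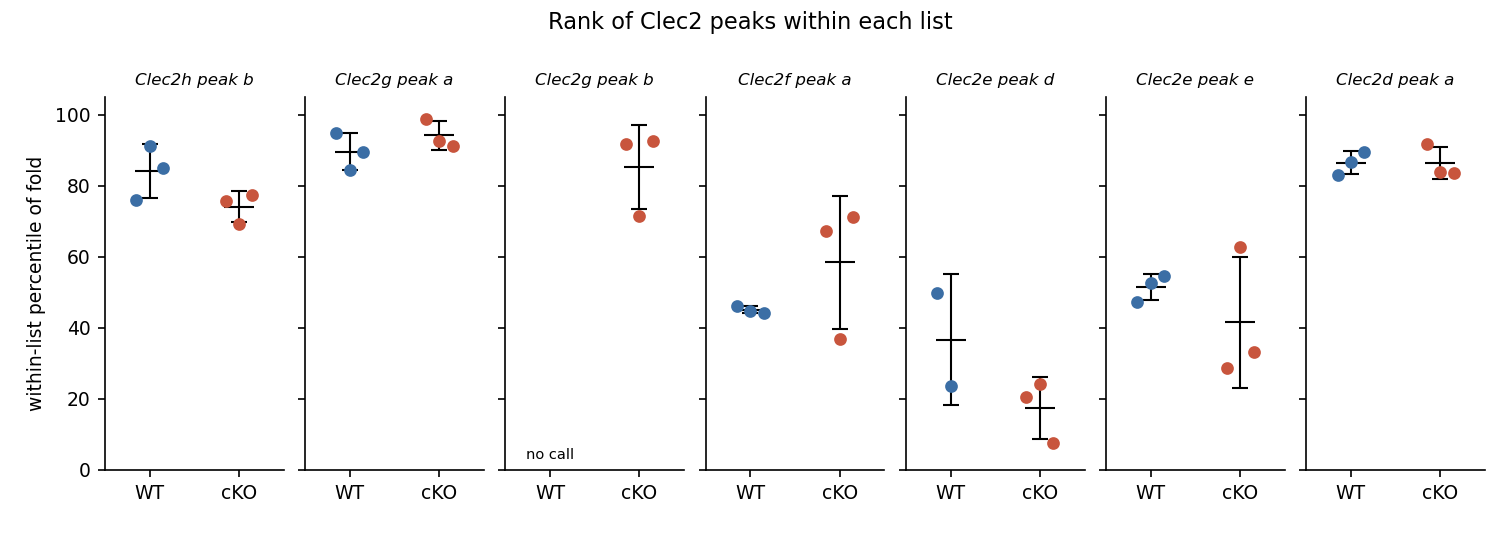
Rank of 7 Clec2 peaks. The vertical axis is the within-list percentile of fold, points are lists, and the horizontal mark and bars are the mean ± SD of the lists that called the peak (3 per genotype, 2 for WT at Clec2e peak d). Clec2g peak b has points in cKO only, and at the peaks called in every list the WT and cKO points overlap.

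Clec2h, the member known from intestinal epithelium, had the highest-ranking promoter among the members whose promoter peak was called in every list. Clec2h peak b (chr6:128661206-128662774) covered the start, with the strongest summit 25 bp upstream of it and within the promoter window of the neighbouring lectin gene Clec2j as well. Percentiles were 76.1, 91.3 and 85.1 in WT 1, 2 and 3, against 75.8, 69.2 and 77.3 in cKO 1, 2 and 3. The cKO mean of 74.1 ± 4.31 was below the WT mean of 84.2 ± 7.66 (SD, n = 3), but the ranges overlapped, because WT 1 ranked below cKO 3. Heights were 17.1, 41.2 and 33.8 in WT, against 28.0, 17.2 and 28.9 in cKO, and WT 1 and cKO 2 were the low lists.

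Clec2h peak a (chr6:128653073-128653829) lay 8.82 kb upstream in an intron of Clec2j and was called in all 6 lists at percentiles of 15.5 to 39.7. Its whole 201-base window is masked as a repeat, and the genome holds 506 other alignments of at least 90% identity over 150 bases or more, and how reads from such copies were placed was not tested. Clec2h peak c was called in WT 1 only, at a fold of 3.86.

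Clec2d, the ligand of NKR-P1B, had the highest summits of the family. Clec2d peak a (chr6:129180407-129181170) covered the start in all 6 lists, with the strongest summit in the first coding exon. Heights were 22.8, 45.0 and 44.7 in WT 1, 2 and 3, against 67.4, 37.7 and 53.3 in cKO 1, 2 and 3, and the ranges overlapped. Percentiles were 83.2, 86.9 and 89.6 in WT, against 91.7, 84.0 and 83.6 in cKO. The cKO mean minus the WT mean was −0.133 points (86.4 ± 4.59 and 86.6 ± 3.22, SD, n = 3), less than either spread.

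By the promoter window the Clec2d peak counted as a promoter peak in WT 3 and cKO 1 only, since in the other 4 lists its summit fell more than 100 bp downstream of the start although the peak itself covered the start. Its window matches a stretch of BC064078 at 90.7% identity over 182 bases, chr6:128992953-128993133, where no list had a peak. The other Clec2d peaks, b and c, were called in cKO 2 and cKO 1 alone at percentiles of 19.4 and 32.4, and peak b lies almost wholly in a repeat with 291 other alignments in the genome.

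**Figure D4:**
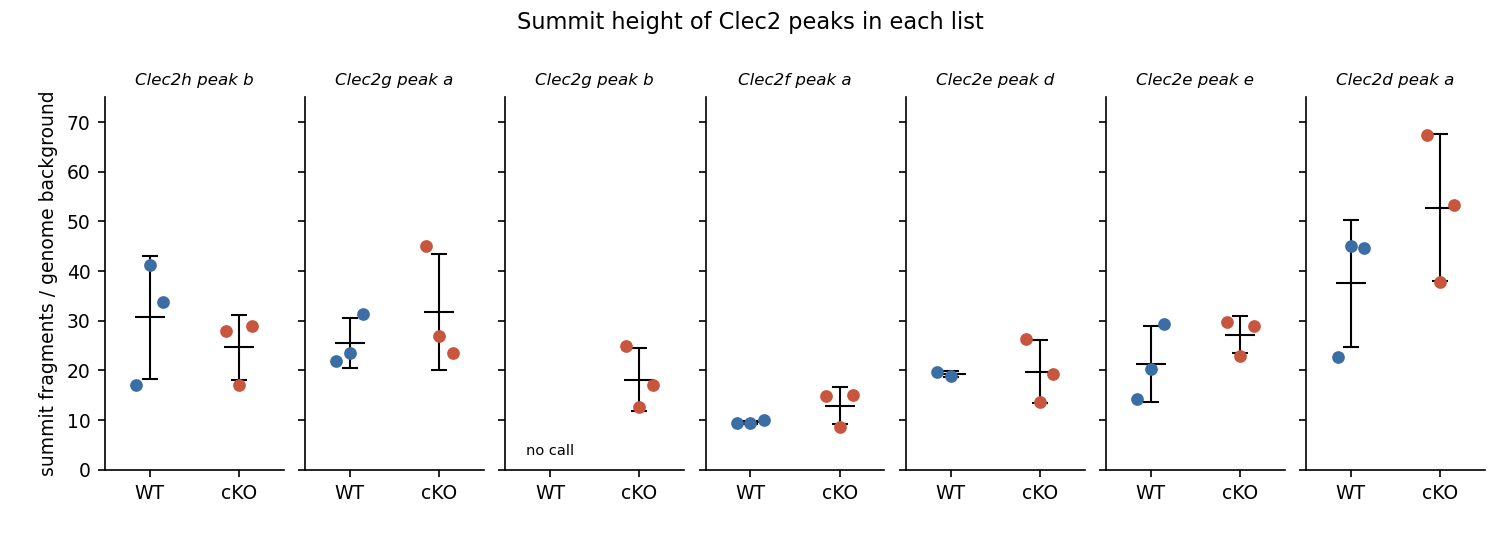
Summit height of the same 7 Clec2 peaks. The vertical axis is the number of fragments at the summit divided by the genome background of the list, points are lists and the bars are the mean ± SD of the lists that called the peak. Clec2d peak a is the highest, from 22.8 to 67.4, and its WT and cKO points overlap.

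Clec2e (Clr-a) had the most merged peaks, 7 of the 19. The peak nearest its start, Clec2e peak d (chr6:129100745-129101088), had its strongest summit 58 bp upstream and was not called in WT 1. Percentiles were 49.7 and 23.6 in WT 2 and 3, against 20.6, 24.2 and 7.63 in cKO 1, 2 and 3. Heights were 19.8 and 18.9 in WT, against 26.2, 13.7 and 19.3 in cKO, and the WT values lay inside the cKO range. By percentile cKO 2 stood above WT 3, so the ranges overlapped on that scale as well.

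Clec2e peak e (chr6:129101342-129102122), 819 bp upstream of the start, was called in all 6 lists. Percentiles were 47.4, 52.7 and 54.5 in WT, against 28.8, 62.8 and 33.1 in cKO, so cKO 2 ranked above every WT list and cKO 1 and cKO 3 below. The mean difference was −9.97 points (51.5 ± 3.68 in WT and 41.6 ± 18.5 in cKO, SD, n = 3). Heights were 14.2, 20.3 and 29.3 in WT, against 29.7, 22.9 and 28.9 in cKO, with the higher mean in cKO. The ranges overlapped, and heights over all peaks called in every list were also higher in cKO, at a median log2 ratio of 0.24. The higher accessibility that the study reported at the Clec2e promoter was read from tracks, a measure unlike the percentile and the height.

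The local background around Clec2e peak e was 2.42, 2.69 and 4.05 times the genome background in WT 1, 2 and 3, against 6.16, 2.70 and 5.64 times in cKO 1, 2 and 3. Among cKO lists the low percentiles were in cKO 1 and cKO 3, where this background was high, whereas among WT lists WT 3 had the highest background and the highest percentile. The part of the local background in the percentiles was not tested.

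Of the other Clec2e peaks, a was called in 2 WT and 3 cKO lists, f in 3 WT and 2 cKO lists, b and g in cKO 1 alone and c in cKO 3 alone. Their percentiles ranged from 2.06 to 35.1. All were thus in the lower part of their lists.

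Clec2f, the pseudogene of GENCODE M21, had 2 peaks outside its GENCODE body. Clec2f peak a (chr6:129010085-129011493), 3.56 kb upstream of its GENCODE start and inside its RefSeq body, was called in all 6 lists. Percentiles were 46.2, 44.8 and 44.2 in WT 1, 2 and 3, against 67.3, 36.9 and 71.2 in cKO 1, 2 and 3. The WT values lay close together while cKO 2 lay below all of them and cKO 1 and 3 above, giving means of 45.1 ± 1.01 and 58.4 ± 18.8 (SD, n = 3). Clec2f peak b, 9.28 kb downstream of the nearest start of the gene, was called in 2 WT and 3 cKO lists at percentiles of 22.6 to 74.1.

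Clec2i, the ligand of NKR-P1F, had no peak in or next to its body. A single peak within its window, at chr6:128878882-128879308 in an intron of BC035044, was called in cKO 1 alone at a percentile of 58.0, and its window is 92.0% repeat with 33 other alignments in the genome. No promoter peak of Clec2i, Clec2g or Clec2f was called in any list. The order of the promoters by mean percentile was therefore Clec2h above Clec2e, with Clec2d peak a, at 86.5 over the 6 lists, level with or above Clec2h peak b, at 79.1. The ranges of the last pair overlapped, 83.2 to 91.7 and 69.2 to 91.3, while those of Clec2h peak b and Clec2e peak e, 28.8 to 62.8, did not.

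Over the 6 peaks called in every list, 0 had all 3 cKO percentiles above the 3 WT percentiles and 0 had all 3 below. Of all 32748 such peaks 4.66% lay wholly above and 7.04% wholly below. By height 0 of the 6 lay wholly above and 0 wholly below, where 3.2% and 0.0702% of all did. The differences of mean percentile ran from −12.5 points at Clec2h peak a to 13.4 at Clec2f peak a, with a median of −5.05, and 90% of all shared peaks fell between −13.3 and 16.6 around a median of −0.0947. By percentile of the recovered fragments the family median was 3.27, so it gives no direction. The SD between single lists of a genotype had a median of 6.67 points over the 6 peaks, which does not measure the spread of the family median.

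**Figure D5:**
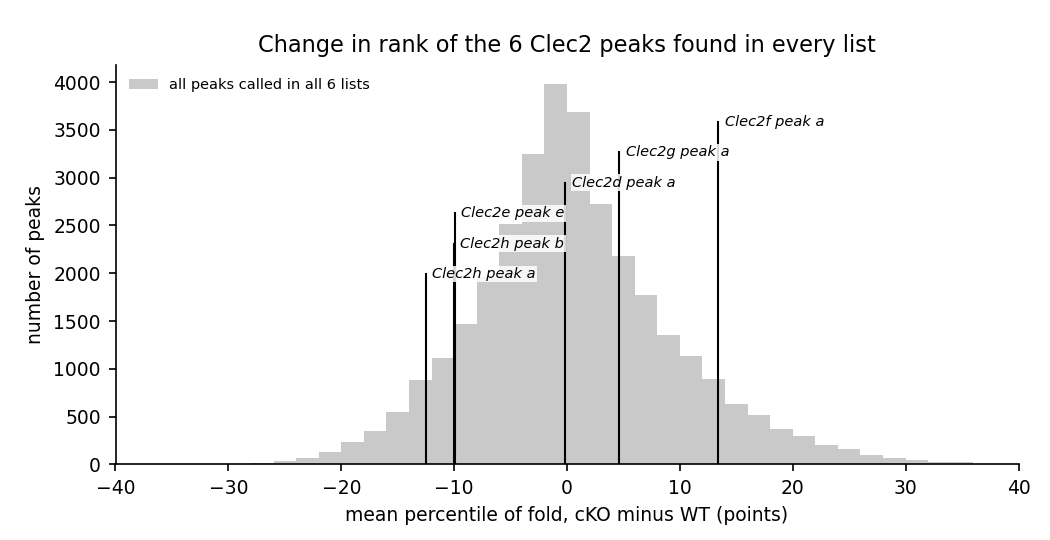
Change in rank of the 6 Clec2 peaks called in every list. The horizontal axis is the mean within-list percentile of fold in cKO minus that in WT, grey bars count all peaks called in all 6 lists, and lines mark the Clec2 peaks. The lines run from −12.5 to 13.4 and lie on both sides of 0.

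On the receptor side of the system, 0 of 5 genes had a promoter peak in every list. Beside Clec2h, 9760 genes had one, against 21938 protein-coding genes in the annotation. With so few genes nothing is read from this. Around Klrb1, Klrb1a, Klrb1b, Klrb1c and Klrb1f, which encode the NKR-P1 receptors, 11 merged peaks were found. All 6 lists had 3 of them, beside 45.9% of all merged peaks. By the rule of 3 against 0, 0 were called in cKO lists only and 0 in WT lists only, beside 0.464% and 0.111% of all. Of the 11 peaks, 3 were called in more cKO than WT lists and 3 in fewer, beside 28.5% and 15.7% of all merged peaks. A promoter peak was called at Klrb1f alone, in 2 WT and 3 cKO lists. At 13 other genes of the complex, such as Klrk1, Klrd1 and Cd69, 0 promoter peaks were called and 10 merged peaks lay within 10 kb. Of these 10 peaks, 1 was called in all 6 lists, 5 in more cKO than WT lists and 2 in fewer, beside the same shares.

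Motif letters were sought on both strands in the 201-base windows. ATCAAA or ATTAAA, the ARID3 letters, occurred in 5 of 19 family windows (26.3%) and in 16.0% of all windows. The 5 were at Clec2f peak b, Clec2e peaks a, c and e and Clec2d peak c. Of these, Clec2e peak c and Clec2d peak c were each called in a single list. The letters are mostly A and T, and the family windows had a higher median A+T, 55.7% against 48.8%. The part of A+T content in the 26.3% was not tested. CAAAGTCCA or CAAAGTTCA, the HNF4 letters, occurred in 0 of 19 and in 2.51% of all. TGAGTCA, the AP-1 letters, occurred in the Clec2h peak b window alone, against 8.17% of all. AGATAA or TGATAA, the GATA letters, occurred in 4 windows (21.1%, against 20.5%), and neither the window around the strongest summit of Clec2g peak b nor the one printed above held any of the 4 motifs.

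In the 250-base promoters the GATA letters occurred in Clec2e, Clec2h and Clec2i, beside 17.0% of 27025 RefSeq promoters of that length. The ARID3 letters occurred in 1 of the 5, Clec2g, beside 21.4%, and the AP-1 letters also in Clec2g alone, beside 4.43%. The HNF4 letters occurred in 0 of the 5, beside 0.722%, a share so low that 0 of 5 tells little. In Clec2e and Clec2h the GATA letters begin at positions 19 and 34 from the 5′ end, inside the stretch the promoters share. Exact letters in a window are a description and do not show a bound factor. Their lack does not show that a looser site is absent either.

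The genes whose promoter percentile ran most like that of Clec2h over the 6 lists were Prdm11 (Pearson r = 0.988), Mfhas1 (0.968), Eepd1 (0.966), Gsdme (0.962) and Syt11 (0.956). For Clec2e they were Gpx4 (0.999), Cdc34 (0.996), Hmg20b (0.995), 1110059E24Rik (0.992) and Abhd17b (0.992). These were chosen as the highest of 9760 genes, of which 43 exceeded 0.9 for Clec2h and 564 for Clec2e, and the points share their libraries, so they are a description of 6 lists.

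At the edge of the rule, the summits just inside 10 kb were those of Clec2h peak a at 8.82 kb and the Clec2i peak at 8.54 kb. Just outside were the peak over the BC064078 copy at 10.74 kb from Clec2g and a peak at chr6:128651067-128651640, 10.89 kb from Clec2h, called in 3 WT and 1 cKO lists at percentiles of 3.37 to 29.4.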

How the data were processed

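Crypts were dissociated to single cells, which were treated with detergent to free nuclei, and the DNA was tagmented and amplified. The authors ran the nf-core ATAC-seq pipeline, with BWA alignment to GRCm38, filtering and removal of a blacklist. Narrow peaks were called with MACS per sample, with no control described. How reads with several matches were treated is not given in the sources used here. The deposited score, fold (a ratio), −log10 p and −log10 q values are those of the authors for single peaks; column 10, the summit offset, is also theirs. The members and lists were chosen with earlier results of these data known. Python 3.11.15, pandas 2.3.3, numpy 2.4.6 and scipy 1.17.1 were used. Lists were limited to the assembled chromosomes and merged where peaks overlapped by 1 base. Percentiles of fold were taken within a list. MACS gives fold as pileup plus 1 over background plus 1, and p from a Poisson model, so the whole summit pileup and the background were recovered for 100% of peaks (relative tolerance 0.0001), which was tested on simulated data. The commonest background was taken as the genome background of a list. Read totals were not used here, so the depth behind a list is known only through that value. Windows of 201 bases were aligned with blastn 2.17.0 and promoters with Biopython 1.88. All 6 members were named, with values per list for promoter peaks, peaks called in 3 lists of 1 genotype and 0 of the other, and the highest-ranking peak of each member. Alternatives were other windows around genes, a −log10 q of at least 5, equal list lengths, summit windows of 501 bp, other ranked measures and leaving out each list. No test was made.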

Additional observations from a re-analysis of the deposited data

How the results depend on the processing

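No paired analysis was possible because the labels give replicate numbers without saying that equal numbers share an animal, litter or day. No result comes from a test. The cKO-only count of 1 and the WT-only count of 0 were the same in all 13 alternatives run for each. Most of these could not lower the cKO-only count. A peak inside a gene body, called in 3 cKO and 0 WT lists, stays so without 1 list, with other flanks or under the looser rule. That peak was also known when the genes were chosen, so the unchanged count adds no support. The difference of 3.67 peaks per list was 1.67 with lists of equal length, 2.33 without flanks and 2.33 to 4.33 when a list was left out. Without flanks 8 merged peaks remained in place of 19, and leaving out a list gave 14 to 19. Peaks ranking higher in cKO were 0 to 1 and peaks ranking lower 0 to 2 when a list was left out, and 1 ranked lower with 20 kb flanks and with lists of equal length. The median percentile difference of −5.05 was 2.26 without flanks, 1.72 by −log10 q, 3.27 by recovered fragments and −8.23 to 0.0173 when a list was left out, turning positive without WT 2; the cause was not tested. Chosen after seeing the data, the count of peaks in a larger share of cKO lists, 11, was 5 with lists of equal length and 6 to 11 when a list was left out, lowest without cKO 1. The difference per 10000 peaks, 0.534, lay between 0.412 and 0.759 when a list was left out, but the ranges of the 2 genotypes overlapped on that scale. The median log2 height ratio of the family, 0.333, lay between 0.0819 and 0.468. That range holds the 0.24 of all peaks called in every list, so it gives no change particular to the family. With 3 lists per genotype and no reads, a site without a peak has no value, so an absent call is not an absence of signal.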
